A study of Mus musculus with 30 samples.

Results

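The Krüppel-like factor (Klf) genes examined here were *Klf1*, *Klf2*, *Klf3*, *Klf4*, *Klf5*, *Klf6*, *Klf7*, *Klf9*, *Klf10* and *Klf13*. They were taken by symbol from a table of 14685 mouse genes, and all 10 passed the filter on low values that left 14525 genes to test. The table gives FPKM, fragments scaled by the length of the transcript and by the mapped fragments of the library, so levels of different genes can be set side by side. RNA was sequenced from 5 populations on the path from the embryonic stem cell (ESC) to blood in 3 genotypes of the E14 ESC line, with 2 biological replicates a group and 30 samples in all. The study compared cells whose Sp1 lacks its DNA-binding domain, and cells without Sp3, with wild type (WT) cells of the same population. Sp1 and Sp3 are ubiquitous transcription factors that bind GC-rich promoter sequence.

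The WT group was the unmodified E14 line. Sp1 ΔDBD/ΔDBD cells (labelled Sp1_deltaDBD) carry on both alleles an *Sp1* gene without its DNA-binding domain. They still make a truncated protein, which the paper concludes keeps part of the activity of Sp1. Sp3-/- cells (labelled Sp3KO) carry a homozygous knockout of *Sp3*. Each mutation was therefore studied in 1 cell line, and an effect of the mutation and a property of the line cannot be told apart. ESC were kept on fibroblast feeder cells and grown without them before differentiation. Whether the ESC taken for RNA were free of feeder cells is not stated in the sources used here. Flk1+ cells, mesoderm that can form blood and vessels, were isolated from embryoid bodies with magnetic beads. The later populations were sorted from a blast culture of Flk1+ cells. Haemogenic endothelium was sorted as HE1 (Tie2+, KIT+, CD41-) and as the later HE2 (Tie2+, KIT+, CD41+), and progenitors were Tie2-, KIT+ and CD41+.

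Klf proteins bind GC-rich and CACCC sequences through zinc fingers at their C-terminus that resemble those of Sp1 and Sp3, and the Klf and Sp proteins form 1 family of transcription factors. *Klf2*, *Klf4* and *Klf5* belong to the circuit that maintains the naive pluripotent state of mouse ESC, *Klf2*, *Klf4* and *Klf6* act in endothelium, and *Klf1* is the erythroid factor that activates globin and red cell membrane genes. *Klf3* is a repressor that recruits the CtBP corepressors and is itself a target of *Klf1*, while *Klf9*, *Klf10* and *Klf13* belong to the subgroup that recruits the Sin3 corepressor.

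Because Sp1, Sp3 and the Klf proteins read related sequence, the stretch before the start of 5 members is shown. Promoter sequence from RefSeq (build GRCm38.p6) was matched for 8 of the 10 members, and *Klf5* and *Klf10* had no entry. In each 250-base window before the RefSeq start, 3 motifs were searched on both strands. They were the GC box (GGGCGG or CCGCCC), the CACCC box (CACCC or GGGTG) and the CCAAT box (CCAAT or ATTGG). A GC box and a CACCC box can overlap, as CCGCCC followed by ACCC, and overlapping GC boxes were counted separately. The sequences run 5′ to 3′ on the strand of the gene, and capitals mark GC boxes and CACCC boxes. Bases of a window that lie inside the annotated gene are not shown.
Klf2: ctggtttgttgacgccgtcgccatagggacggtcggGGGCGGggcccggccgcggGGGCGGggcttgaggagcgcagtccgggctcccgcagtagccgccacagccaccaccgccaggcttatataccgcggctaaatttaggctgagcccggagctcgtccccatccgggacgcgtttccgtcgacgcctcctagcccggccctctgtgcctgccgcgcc
Klf4: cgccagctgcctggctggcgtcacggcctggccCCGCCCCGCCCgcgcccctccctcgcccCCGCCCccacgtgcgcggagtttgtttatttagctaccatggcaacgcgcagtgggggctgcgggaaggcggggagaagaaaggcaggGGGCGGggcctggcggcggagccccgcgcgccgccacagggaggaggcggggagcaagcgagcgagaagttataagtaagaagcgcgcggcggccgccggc
Klf6: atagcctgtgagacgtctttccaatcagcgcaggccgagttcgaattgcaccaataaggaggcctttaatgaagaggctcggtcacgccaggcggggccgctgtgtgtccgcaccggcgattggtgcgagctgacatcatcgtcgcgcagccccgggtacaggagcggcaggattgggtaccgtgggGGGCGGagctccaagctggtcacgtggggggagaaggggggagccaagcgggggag
Klf9: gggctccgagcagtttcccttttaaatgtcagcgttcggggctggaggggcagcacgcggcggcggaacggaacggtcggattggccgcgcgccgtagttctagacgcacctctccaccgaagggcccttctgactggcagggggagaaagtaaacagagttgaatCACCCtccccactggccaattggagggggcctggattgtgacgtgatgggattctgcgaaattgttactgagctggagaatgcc
Klf13: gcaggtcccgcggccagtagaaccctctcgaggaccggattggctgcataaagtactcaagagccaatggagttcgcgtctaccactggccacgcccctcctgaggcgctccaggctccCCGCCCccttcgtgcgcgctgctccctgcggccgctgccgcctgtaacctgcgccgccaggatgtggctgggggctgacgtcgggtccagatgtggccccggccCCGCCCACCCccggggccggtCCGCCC
*Klf4*, at chr4:55532476-55532725 on the minus strand, held 4 GC boxes, and *Klf13*, at chr7:63938916-63939165 on the minus strand, held 3. *Klf2*, shown at chr8:72318812-72319032 on the plus strand, held 2, and *Klf6*, shown at chr13:5861239-5861481 on the plus strand, held 1. *Klf9*, at chr19:23140976-23141225 on the plus strand, held no GC box and 1 CACCC box. The other members lie (GRCm38, GENCODE M21) at chr8:84901928-84905291 (*Klf1*), chr5:64803388-64832901 (*Klf3*), chr14:99298691-99315036 (*Klf5*), chr1:64029447-64122282 (*Klf7*) and chr15:38291463-38300706 (*Klf10*). In full windows not printed, *Klf3* held 6 GC boxes and 5 CACCC boxes, *Klf7* held 1 and 3, and *Klf1* held none and 1. The whole *Klf7* window lies inside the annotated gene, so it is before the RefSeq start but not before that of GENCODE M21. A GC box occurred in 6 of the 8 members and in 55.9% of the 14096 promoters of genes in the table. A CACCC box occurred in 6 of the 8 and in 57.8%, and a CCAAT box in 4 of the 8 and in 35.3%. A match describes the letters of the window, not a bound site.

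Before the Klf genes were compared, the genotypes and populations were checked. *Sp3* was lower in Sp3-/- than in WT cells in all 5 populations, by log2 -2.40 to -3.32 with an adjusted p of at most 1.13e-06, and *Sp1* differed by log2 -0.10 to -0.76 in Sp1 ΔDBD/ΔDBD cells, whose deletion removes only part of the gene. Summed ESC markers were 1086 to 1331 FPKM in ESC and at most 2.16 FPKM in HE1, HE2 and progenitors, and summed endothelial markers were 864 to 1371 FPKM in HE1. Replicate 1 of the WT and Sp1 ΔDBD/ΔDBD groups stood apart after the Flk1+ stage. In HE1 the summed FPKM of 4 smooth muscle genes was 1736 and 359 in WT replicates 1 and 2, 989.5 and 248 in Sp1 ΔDBD/ΔDBD, and 208 and 138 in Sp3-/-. In HE2 it was 459 and 74.9, 368 and 37.6, and 156 and 135, and in progenitors 276 and 87.4, 145 and 20.1, and 66.6 and 80.6. The summed FPKM of 5 fibroblast genes in HE1 was likewise highest in WT replicate 1, with 282 and 35.7 for WT, 127 and 13.3 for Sp1 ΔDBD/ΔDBD and 27.7 and 19.0 for Sp3-/-. In ESC the median difference of the 5 fibroblast genes from WT was log2 1.87 for Sp1 ΔDBD/ΔDBD and 0.81 for Sp3-/-, and none of the 5 passed the test. The part of such other cells in the results on ESC, HE1, HE2 and progenitors was not tested. In these bulk samples, fewer cells of a type and less RNA per cell cannot be told apart.

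Each Klf gene followed its own course over the 5 WT populations. *Klf2*, *Klf5* and *Klf9* were high in ESC, *Klf10* in Flk1+ cells, *Klf6*, *Klf7*, *Klf3* and again *Klf2* in HE1, and *Klf1* in progenitors. Over the 10 pairs of WT populations, 67 of 100 comparisons of a member passed an adjusted p of 0.05 (limma, Benjamini-Hochberg), where 46.4% of the comparisons of all genes did. Over the 4 consecutive steps, 23 of 40 comparisons passed, where 35.1% of those of all genes did. They fell on 9 of the 10 members, a count for which no share over all genes was computed. *Klf13* had none.

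**Figure D1:**
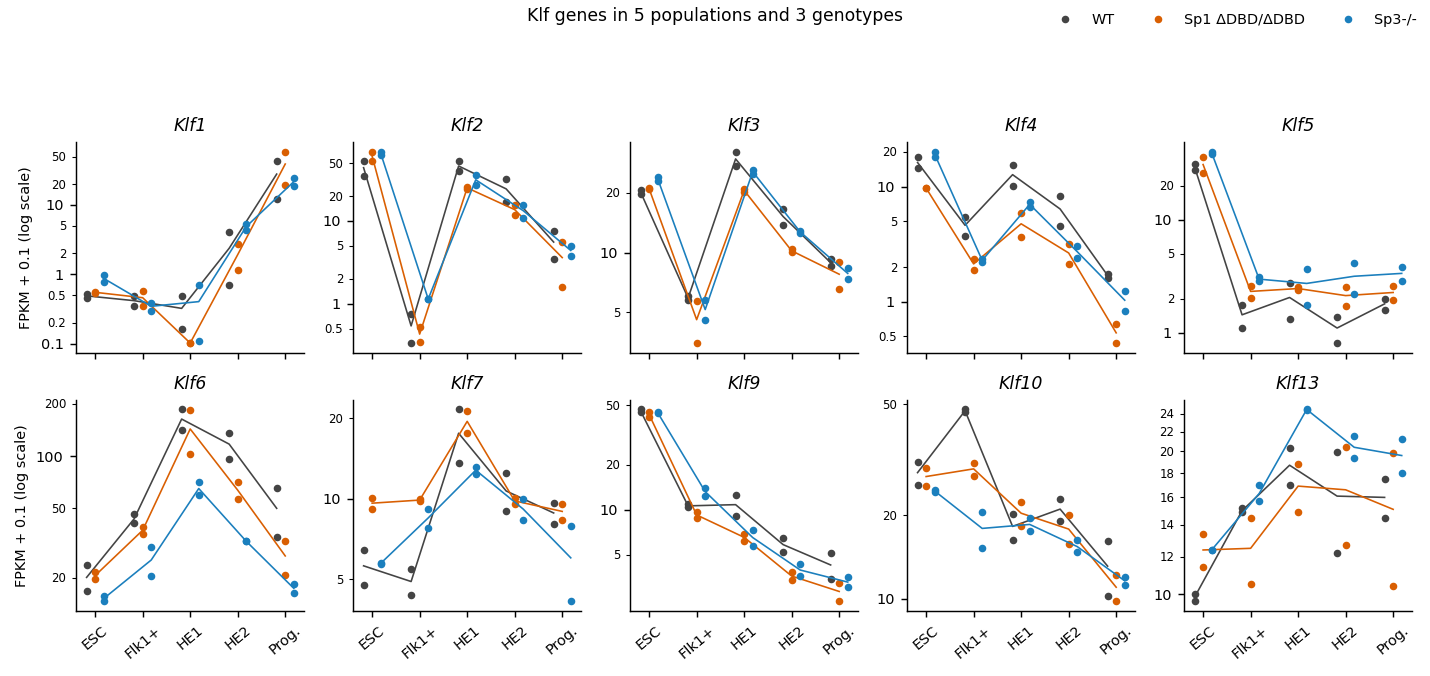
FPKM + 0.1 of the 10 Klf genes (vertical log scale, a different range in each panel) in the 5 populations for WT (black), Sp1 ΔDBD/ΔDBD (orange) and Sp3-/- (blue). Points are single samples and lines join the arithmetic means of the 2 replicates, and *Klf6* in HE2 and *Klf10* in Flk1+ cells show Sp3-/- samples far below both WT samples.

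The 3 pluripotency-associated members fell on leaving the ESC state. *Klf5* was at 31.1 and 27.6 FPKM in WT ESC and at 1.01 and 1.66 FPKM in Flk1+ cells, and no WT sample of a later population exceeded 2.67 FPKM. It fell by 4.39 on the log2 scale (standard error, SE, 0.395, adjusted p = 2.31e-08), in a step that 52.2% of all genes passed. *Klf2* measured 53.5 and 34.4 FPKM in ESC, 0.647 and 0.233 FPKM in Flk1+ cells and 39.5 and 52.4 FPKM in HE1. The ESC and HE1 values overlapped, and both lay far above the Flk1+ samples. *Klf2* thus fell by 6.43 (SE 0.487, adjusted p = 2.16e-09) and rose again by 6.51 (adjusted p = 3.10e-09), in a step that 53.0% of all genes passed. *Klf4* was at 14.3 and 17.9 FPKM in ESC, 5.38 and 3.65 FPKM in Flk1+ cells and 10 and 15.2 FPKM in HE1, and was lowest in progenitors at 1.52 and 1.65 FPKM. Its fall to Flk1+ cells (log2 -1.82, SE 0.318, adjusted p = 8.14e-05), its rise to HE1 (1.46, adjusted p = 0.000743) and its last fall (-1.86, adjusted p = 0.000451) were kept without any sample.

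*Klf6* was the most abundant Klf message of the endothelial populations. This gene, which acts in vascular development and repair, measured 23.5 and 16.6 FPKM in WT ESC, 40.9 and 46.1 FPKM in Flk1+ cells, 140.5 and 185 FPKM in HE1, 96.6 and 136 FPKM in HE2 and 34.3 and 65.7 FPKM in progenitors. All HE1 and HE2 samples lay above all samples of the other WT populations. It rose by log2 1.13 (SE 0.299, adjusted p = 0.00359) and 1.89 (adjusted p = 2.99e-05) in the first steps and fell by 1.27 from HE2 to progenitors (adjusted p = 0.00639). *Klf7* rose from 5.34 and 4.25 FPKM in Flk1+ cells to 21.5 and 13.5 FPKM in HE1 (1.82, SE 0.257, adjusted p = 8.55e-06). *Klf3* went from 5.64 and 5.94 FPKM to 27.1 and 32.2 FPKM over the same step (2.33, SE 0.184, adjusted p = 6.21e-09). It then fell in each of the following steps, by 0.97 (adjusted p = 0.00102) and 0.77 (adjusted p = 0.00754), to 8.44 and 9.14 FPKM in progenitors.

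Among the members that recruit Sin3, *Klf9* was an ESC gene and *Klf10* a Flk1+ gene. *Klf9* measured 44.6 and 46.6 FPKM in WT ESC, 10.8 and 10.3 FPKM in Flk1+ cells and 3.32 and 5.01 FPKM in progenitors, and changed by log2 -2.1 in the first step (SE 0.201, adjusted p = 5.10e-08). *Klf10*, first described as a gene induced early by TGF-β, was at 31.0 and 25.6 FPKM in ESC, 46.7 and 47.8 FPKM in Flk1+ cells and 16.2 and 20.0 FPKM in HE1. Both Flk1+ samples lay above every other WT sample. It rose by 0.75 (SE 0.199, adjusted p = 0.00387) and fell by 1.39 (adjusted p = 9.72e-06). *Klf13* varied least, from 9.58 and 9.94 FPKM in ESC to 16.9 and 20.2 FPKM in HE1, a ratio of the highest to the lowest WT group mean of 1.90 where that of *Klf5* was 29.3. Its HE1, HE2 and progenitor levels were above ESC (0.91, 0.66 and 0.69, adjusted p = 0.00513, 0.0370 and 0.0310), and no pair among its other WT populations passed the test. The HE2 and progenitor calls were lost without either WT ESC replicate (0.116 and 0.0935, and 0.104 and 0.0830) and without replicate 2 of WT HE2 (0.406) or of WT progenitors (0.169).

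*Klf1* was the only member under 1 FPKM in all WT samples of ESC, Flk1+ cells and HE1. It measured 0.381 and 0.0622 FPKM in HE1, 3.96 and 0.591 FPKM in HE2 and 43.5 and 12.1 FPKM in progenitors. Replicate 1 was the higher library in each of these populations, and all progenitor samples lay above all others. The rises of log2 2.58 to HE2 (SE 0.827, adjusted p = 0.0311) and 3.78 to progenitors (adjusted p = 0.00374) came in steps that 21.9% and 13.2% of all genes passed. With a pseudocount of 1 FPKM in place of 0.1, the first of these rises was 1.21 with an adjusted p of 0.0993.

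Of the 23 WT step calls, 13 were kept without any sample and 10 were lost without 1 library. Without WT ESC replicate 2, the first rises of *Klf6* and *Klf10* had adjusted p = 0.0596 and 0.0535. Without WT HE1 replicate 2, the HE1 to HE2 changes of *Klf1*, *Klf4* and *Klf9* had adjusted p = 0.237, 0.211 and 0.0675, and without WT HE2 replicate 1 they had 0.373, 0.298 and 0.0550. Without WT HE2 replicate 2, the HE2 to progenitor changes of *Klf1*, *Klf2*, *Klf3*, *Klf6* and *Klf10* had adjusted p = 0.0847, 0.0690, 0.0803, 0.0798 and 0.147. Without WT progenitor replicate 1 these were 0.0806, 0.0960, 0.0642, 0.154 and 0.348.

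Summing the FPKM of the 10 members shows how the make-up of the Klf messages turned over. WT ESC had a mixture led by *Klf9* at 20.9% ± 2.64 (SD, n = 2) and *Klf2* at 19.9% ± 4.27. In Flk1+ cells *Klf10* made up 35.4% ± 0.0443 and *Klf6* 32.6% ± 2.16. *Klf6* alone made up 51.0% ± 2.17 in HE1 and 53.1% ± 1.41 in HE2. In progenitors *Klf6* (36.0% ± 13.7) and *Klf1* (20.9% ± 17.6) led, with a spread between the replicates nearly as wide as the *Klf1* share itself. In Sp3-/- cells the *Klf6* share was 33.5% ± 1.96 in HE1, 27.5% ± 0.453 in HE2 and 18.3% ± 3.08 in progenitors, and in Sp1 ΔDBD/ΔDBD cells it was 54.4% ± 8.30, 45.0% ± 0.615 and 23.1% ± 8.87. The sum of the 10 genes was 219 ± 47.3 FPKM in WT HE2 and 117 ± 1.93 FPKM in Sp3-/- HE2.

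**Figure D2:**
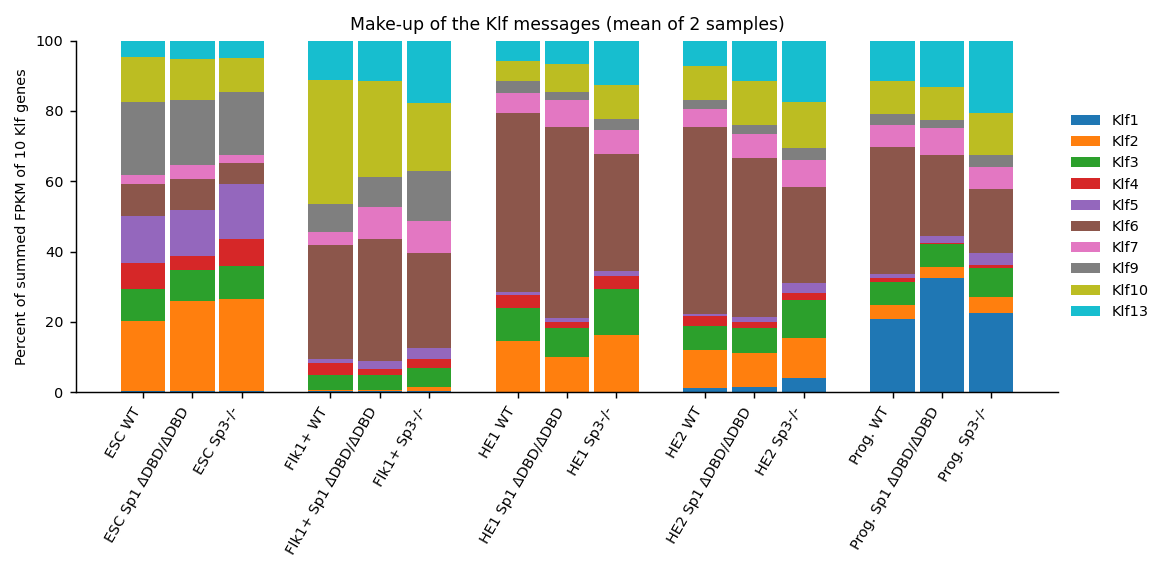
Mean share (percent, 2 samples a bar) of each Klf gene in the summed FPKM of the 10 members, for 15 groups. The *Klf6* block in HE2 is 53.1% for WT, 45.0% for Sp1 ΔDBD/ΔDBD and 27.5% for Sp3-/- cells.

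In the mutants, *Klf4*, *Klf6*, *Klf9* and *Klf10* were lower than in WT cells in some populations, and *Klf7* and *Klf5* were higher in some. In Sp1 ΔDBD/ΔDBD cells 8 of 50 comparisons of a member with WT passed the test, which is 16.0% where 8.02% of the comparisons of all genes passed. Of these, 1 was higher and 7 lower, against 3.97% and 4.05% of the comparisons of all genes. For Sp3-/- 9 of 50 passed, which is 18.0% where 11.5% of all comparisons passed, 2 of them higher (5.80% of all) and 7 lower (5.67%). None of these was in ESC, where 6.06% of all genes in the Sp1 mutant and 11.3% in the Sp3 mutant passed. Among all genes, those lower in Flk1+ cells, HE1, HE2 and progenitors were 2.62%, 4.35%, 4.97% and 5.04% for Sp1 ΔDBD/ΔDBD and 5.94%, 4.87%, 6.84% and 4.77% for Sp3-/-. Both sets of comparisons use the same WT samples, so a WT sample far from its partner moves both. The median difference of the 10 members from WT was log2 -0.38 in HE1 and -0.40 in HE2 for Sp1 ΔDBD/ΔDBD, and -0.32 and -0.35 for Sp3-/-, where the medians of all genes were between -0.02 and 0.05. The members were chosen with earlier results of these data known, so these shares need not hold for the whole family. Of the 6 other Klf genes, 1 was higher and none lower in HE1 and in HE2 of each mutant. There 4.70% to 6.97% of all genes were higher. In progenitors 1 was lower in Sp1 ΔDBD/ΔDBD, and 2 were higher (3.88% of all genes) and 1 lower in Sp3-/-. In Flk1+ cells 1 was lower in Sp3-/-, and no other comparison of these 6 with WT passed.

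**Figure D3:**
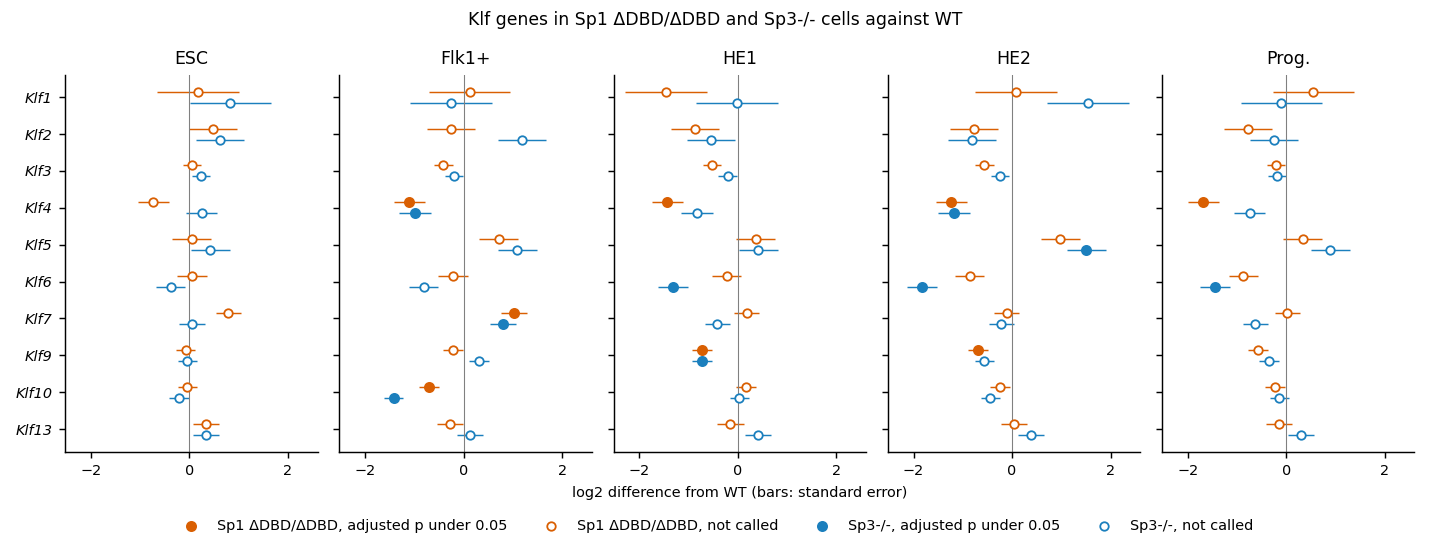
Log2 difference of each mutant from WT (horizontal axis, bars are the limma standard error) for the 10 Klf genes in the 5 populations. Filled points have an adjusted p under 0.05, 8 for Sp1 ΔDBD/ΔDBD and 9 for Sp3-/-, among them *Klf4* below WT in 4 populations for Sp1 ΔDBD/ΔDBD and *Klf6* below WT in HE1, HE2 and progenitors for Sp3-/-.

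*Klf4* was lower in Sp1 ΔDBD/ΔDBD cells in every population after ESC. Its promoter window holds 4 GC boxes, and their part in the difference was not tested. In Flk1+ cells it measured 5.38 and 3.65 FPKM in WT, 1.80 and 2.26 FPKM in Sp1 ΔDBD/ΔDBD and 2.12 and 2.25 FPKM in Sp3-/-. In HE1 the values were 10 and 15.2, 3.56 and 5.74, and 6.52 and 7.30 FPKM, and in HE2 they were 4.42 and 8.16, 2.01 and 3.10, and 2.28 and 2.96 FPKM. In progenitors they were 1.52 and 1.65, 0.335 and 0.537, and 0.731 and 1.13 FPKM. Every sample of either mutant lay below both WT samples in each of these 4 populations, and in ESC this held only for Sp1 ΔDBD/ΔDBD (9.66 and 9.55 against 14.3 and 17.9 FPKM). The ratio of the WT mean to the Sp1 ΔDBD/ΔDBD mean, with 0.1 FPKM added to each, was 2.17, 2.68, 2.41 and 3.15 from Flk1+ cells to progenitors.

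The log2 differences of *Klf4* in Sp1 ΔDBD/ΔDBD cells were -0.73 in ESC (adjusted p = 0.212), -1.10 in Flk1+ cells (0.0489), -1.43 in HE1 (0.00732), -1.23 in HE2 (0.0182) and -1.68 in progenitors (0.00239), each with an SE of 0.318. In Sp3-/- cells they were 0.25 (0.715), -0.99 (0.0474), -0.83 (0.0998), -1.18 (0.0193) and -0.74 (0.163). The progenitor call in Sp1 ΔDBD/ΔDBD cells was kept without any sample, at adjusted p from 0.00409 to 0.0396 without each sample compared. It was lost with progenitors fitted alone (0.125). The other *Klf4* calls of both mutants were also lost with their population fitted alone (0.0675 to 0.226). The HE1 call was lost when WT replicate 2 (0.0812) or the mutant's replicate 1 (0.0717) was left out, and the HE2 call without the same replicates of HE2 (0.194 and 0.123). In Sp3-/- HE2 the call was lost without WT replicate 2 (0.181) or either Sp3-/- replicate (0.132 and 0.0571). Both Flk1+ calls were lost without any of the 4 Flk1+ samples they compare, at adjusted p up to 0.349 and 0.305, and each was also lost without any of 14 other samples (0.0553 to 0.0633 and 0.0518 to 0.0603).

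*Klf6* was lower in Sp3-/- cells from HE1 onward. In HE2 it measured 96.6 and 136 FPKM in WT, 56.7 and 70.4 FPKM in Sp1 ΔDBD/ΔDBD and 32.3 and 32.3 FPKM in Sp3-/- cells. In HE1 the values were 140.5 and 185, 102 and 184, and 70.6 and 59.4 FPKM, and in progenitors they were 34.3 and 65.7, 20.7 and 32.5, and 18.2 and 16.3 FPKM. In all 3 populations both Sp3-/- samples lay below every WT and every Sp1 ΔDBD/ΔDBD sample. The WT mean was 2.50, 3.61 and 2.88 times the Sp3-/- mean in HE1, HE2 and progenitors. In Flk1+ cells the Sp3-/- samples, 20.5 and 29.9 FPKM, also lay below WT at 40.9 and 46.1 FPKM.

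The differences of *Klf6* in Sp3-/- cells were log2 -0.38 in ESC (adjusted p = 0.481), -0.81 in Flk1+ cells (0.0828), -1.32 in HE1 (0.00893), -1.83 in HE2 (0.000862) and -1.45 in progenitors (0.00579), with an SE of 0.299. In Sp1 ΔDBD/ΔDBD cells they were at most 0.87 in size, at HE2 (-0.86, adjusted p = 0.0755) and progenitors (-0.87, 0.0791), and none passed the test. The HE2 call in Sp3-/- cells was kept without any sample. That in progenitors was lost without WT replicate 2 (0.0848), and that in HE1 without WT replicate 2 (0.0702) or Sp3-/- replicate 2 (0.0944).

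Between the mutants, 3 of 50 comparisons of a member passed, 6.0% where 11.6% of the comparisons of all genes did. These were *Klf6* in HE1 and HE2 and *Klf10* in Flk1+ cells. For *Klf6*, Sp3-/- minus Sp1 ΔDBD/ΔDBD, a comparison that uses no WT sample, was log2 -1.08 in HE1 (adjusted p = 0.0210) and -0.97 in HE2 (0.0331), where 6.74% and 8.45% of all genes were lower. In HE1 the call was lost without Sp1 ΔDBD/ΔDBD replicate 2 (0.290) or Sp3-/- replicate 1 (0.0585) or 2 (0.154), and in HE2 without the same libraries of HE2 (0.206, 0.112 and 0.144). After correction for GC content and length neither passed (-0.84, adjusted p = 0.0760, and -0.62, 0.210), nor did *Klf10* (-0.66, 0.0599). *Klf4* was higher in Sp3-/- than in Sp1 ΔDBD/ΔDBD cells by 0.97 in ESC and 0.94 in progenitors without passing the test (0.0590 and 0.0619).

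*Klf10* lost its Flk1+ peak in Sp3-/- cells. Flk1+ cells had 46.7 and 47.8 FPKM in WT, 27.6 and 30.7 FPKM in Sp1 ΔDBD/ΔDBD and 15.1 and 20.4 FPKM in Sp3-/- cells, and the 3 genotypes did not overlap. In ESC the same groups had 31.0 and 25.6, 29.5 and 25.3, and 24.6 and 24.1 FPKM. The difference from WT in Flk1+ cells was log2 -1.42 in Sp3-/- (SE 0.199, adjusted p = 0.000289), a 2.65-fold lower mean, and -0.70 in Sp1 ΔDBD/ΔDBD (0.0462). The mutants differed from each other by -0.72 (0.0309), with 3.78% of all genes lower in Sp3-/-. The call in Sp3-/- was kept without any sample, at adjusted p from 0.000844 to 0.0128. That in Sp1 ΔDBD/ΔDBD was lost without any of its 4 Flk1+ samples (0.110 to 0.250) and without any of 8 samples of other groups (0.0552 to 0.0605). The difference between the mutants was lost without Sp1 ΔDBD/ΔDBD replicate 1 (0.0610) or 2 (0.263) or Sp3-/- replicate 1 (0.336).

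Tests of the effect of a mutation in a later population against its effect in ESC passed for a member in 1 of 80 cases, 1.25% where 2.13% of all such tests passed. The 1 was *Klf10*, for which the effect of the Sp3 knockout in Flk1+ cells minus that in ESC was log2 -1.21 (adjusted p = 0.0340), with 0.482% of all genes lower in this test. It was lost without 7 of the 8 samples it compares, at adjusted p up to 0.197, and kept without Flk1+ Sp3-/- replicate 2 (0.0352). From ESC to Flk1+ cells *Klf10* changed by 0.75 for WT, 0.09 for Sp1 ΔDBD/ΔDBD (adjusted p = 0.734) and -0.47 for Sp3-/- cells (0.0595). From Flk1+ cells to HE1 it changed by -1.39, -0.54 (0.0336) and 0.06 (0.843). The step of -0.54 was lost without Sp1 ΔDBD/ΔDBD Flk1+ replicate 1 (0.0629) or 2 (0.158) or HE1 replicate 1 (0.219), after correction for GC content and length (0.0557) and with the genotype fitted alone (0.0638).

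*Klf7*, which is known for its part in neuronal differentiation, was higher in Flk1+ cells of both mutants. It measured 5.34 and 4.25 FPKM in WT, 9.73 and 9.86 FPKM in Sp1 ΔDBD/ΔDBD and 7.70 and 9.06 FPKM in Sp3-/- cells. All 4 mutant samples lay above both WT samples. The differences were log2 1.02 (SE 0.257, adjusted p = 0.0225) and 0.80 (0.0479), where 2.92% and 6.69% of all genes were higher, and both calls were lost without any of the 4 samples they compare, at adjusted p up to 0.247 and 0.322. The second was also lost without any of 14 other samples (0.0514 to 0.0605). In ESC Sp1 ΔDBD/ΔDBD cells had 10 and 9.02 FPKM against 6.35 and 4.67 FPKM in WT (0.79, adjusted p = 0.0754) and 5.59 and 5.67 FPKM in Sp3-/- cells. From HE1 onward *Klf7* differed from WT by -0.63 to 0.18 and passed no test.

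*Klf9*, whose window holds no GC box, was lower in both mutants in HE1. It had 9.01 and 12.5 FPKM in WT, 6.04 and 6.82 FPKM in Sp1 ΔDBD/ΔDBD and 5.61 and 7.22 FPKM in Sp3-/- cells, with all mutant samples below WT. The differences were log2 -0.72 (SE 0.201, adjusted p = 0.0291) and -0.73 (0.0246). In HE2 WT had 5.08 and 6.40 FPKM, Sp1 ΔDBD/ΔDBD 3.71 and 3.29 FPKM (-0.69, 0.0350) and Sp3-/- 3.49 and 4.22 FPKM (-0.56, 0.0685). Each of the 3 calls was lost without 1 library. In HE1 the call in Sp1 ΔDBD/ΔDBD was lost without WT replicate 2 (0.237) or either mutant replicate (0.114 and 0.0889), and that in Sp3-/- without WT replicate 2 (0.212) or either mutant replicate (0.207 and 0.0510). In HE2 it was lost without any of the 4 samples (0.0505 to 0.217).

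*Klf5* was higher in Sp3-/- HE2, with 4.01 and 2.1 FPKM against 1.29 and 0.706 FPKM in WT and 2.45 and 1.61 FPKM in Sp1 ΔDBD/ΔDBD cells. Both mutants lay above WT. The difference was log2 1.51 in Sp3-/- (SE 0.395, adjusted p = 0.0169), a 2.87-fold higher mean where 6.97% of all genes were higher, and 0.98 in Sp1 ΔDBD/ΔDBD (0.131). The call was lost without WT replicate 2 (0.126) or Sp3-/- replicate 1 (0.178). In the other populations the Sp3-/- mean was above the WT mean without passing the test, with 3.02 and 2.74 against 1.01 and 1.66 FPKM in Flk1+ cells (1.09, adjusted p = 0.0784) and 3.74 and 2.75 against 1.90 and 1.5 FPKM in progenitors (0.89, 0.179).

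Neither *Klf1*, *Klf2*, *Klf3* nor *Klf13* passed the test against WT in either mutant. *Klf1* in progenitors had 43.5 and 12.1 FPKM in WT, 58.6 and 19.3 FPKM in Sp1 ΔDBD/ΔDBD and 19.0 and 24.2 FPKM in Sp3-/- cells, and all 3 genotypes overlapped (log2 0.55 and -0.10, SE 0.827, adjusted p = 0.776 and 0.96). In HE2 the Sp3-/- samples, 4.29 and 5.27 FPKM, lay above WT at 3.96 and 0.591 FPKM (1.54, adjusted p = 0.230). *Klf2* in HE1 had 39.5 and 52.4 FPKM in WT, 25.4 and 24.5 FPKM in Sp1 ΔDBD/ΔDBD and 35.5 and 27.1 FPKM in Sp3-/- cells, and in HE2 16.7 and 31.9, 11.7 and 15.6, and 15.5 and 10.9 FPKM. Both mutants lay below WT in both populations, with log2 differences of -0.55 to -0.86, an SE of 0.487 and an adjusted p of at least 0.284.

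*Klf3* and *Klf13* showed the narrowest differences of these 4 genes. *Klf3*, whose full window holds 6 GC boxes, measured 13.7 and 16.5 FPKM in WT HE2. It measured 9.96 and 10.3 FPKM in Sp1 ΔDBD/ΔDBD HE2 (log2 -0.56, SE 0.184, adjusted p = 0.0593) and 12.4 and 12.8 FPKM in Sp3-/- HE2 (-0.25, 0.390). *Klf13*, whose window holds 3 GC boxes, measured 16.9 and 20.2 FPKM in WT HE1 and 24.3 and 24.4 FPKM in Sp3-/- HE1 (0.40, SE 0.265, adjusted p = 0.373). Sp1 ΔDBD/ΔDBD HE1, at 14.8 and 18.7 FPKM, overlapped WT. The smallest two-sided p of an exact permutation test of 2 samples against 2 is 0.333, and the tests here rest on a spread shared across groups and genes.

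The fold change of 2 that the study used was applied here with an added floor, a higher mean above 3 FPKM. By this rule *Klf7* was higher in Sp1 ΔDBD/ΔDBD Flk1+ cells (as were 1.18% of all genes). *Klf4* was lower in Sp1 ΔDBD/ΔDBD Flk1+ cells (1.90% of all genes), HE1 (2.83%) and HE2 (2.68%). For Sp3-/-, *Klf4* and *Klf10* were lower in Flk1+ cells (2.06%), *Klf6* in HE1 (3.02%), *Klf4* and *Klf6* in HE2 (2.58%) and *Klf6* in progenitors (2.89%). *Klf1* and *Klf5* were higher in Sp3-/- HE2 (1.83%). The floor, which is not in the study's stated rule, left out for instance *Klf4* in Sp1 ΔDBD/ΔDBD progenitors, over that fold but under 3 FPKM in both groups.

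The steps between populations were also tested within each mutant. Of the 40 step comparisons of a member, 24 passed in Sp1 ΔDBD/ΔDBD cells, where 32.6% of those of all genes did, and 18 passed in Sp3-/- cells, where 29.0% of all did. The 23 steps called in WT had the same direction in 23 cases in the Sp1 mutant and in 21 in the Sp3 mutant, a description for which no share over all genes was computed. Both steps that turned in Sp3-/- cells were those of *Klf10* into and out of the Flk1+ stage.

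Other genes of the Klf pathways were counted from lists of known partners and targets. Among 12 cofactors and ubiquitin ligases of Klf proteins, none passed the test in ESC of either mutant. In Sp1 ΔDBD/ΔDBD cells *Sin3a*, the corepressor that *Klf9*, *Klf10* and *Klf13* recruit, was higher in HE1 (log2 0.81, adjusted p = 0.00347) and HE2 (0.67, 0.0137), and the histone deacetylase *Hdac2* was higher in HE2 (0.45, 0.00822), that is 1 and 2 of the 12 where 5.69% and 4.70% of all genes were higher. These calls were lost without Sp1 ΔDBD/ΔDBD replicate 2 (0.0758, 0.217 and 0.168), and that of *Sin3a* in HE2 also without WT HE2 replicate 1 (0.0826). In the Sp3 knockout 1 of the 12 passed, *Hdac2* in Flk1+ cells (-0.34, 0.0340), and it was lost without any of the 4 samples (0.136 to 0.172). In that comparison 12.6% of all genes passed, so 1 of 12 is no more than the background.

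Erythroid genes that *Klf1* activates were counted over the same steps. Of 14 measured list members, 2 rose and none fell from WT ESC to Flk1+ cells, where 27.4% of all genes rose and 24.7% fell. From there to HE1 4 rose and 2 fell, where 23.5% of all genes rose and 29.5% fell. From HE1 to HE2 8 rose and none fell, where 11.7% of all genes rose. From HE2 to progenitors 9 rose and none fell, where 5.46% of all genes rose, with a median log2 change of 2.43 where that of all genes was 0.04. The embryonic globins *Hbb-bh1* (3.45, adjusted p = 0.000940) and *Hba-x* (3.73, 0.000799), the haem synthesis gene *Alas2* (2.43, 0.000879) and the membrane skeleton gene *Ank1* (4.43, 0.000280) were among the 9, and each was kept without any sample. The summed FPKM of the 14 genes in progenitors was 13756 and 4603 for WT, 9860.5 and 7768 for Sp1 ΔDBD/ΔDBD and 1605 and 3601 for Sp3-/- cells. In this sum both Sp3-/- samples lay below every other progenitor sample. The sum weighs each gene by its level. The 6 erythroid markers, which share *Hbb-bh1*, *Hba-x*, *Hbb-y* and *Alas2* with this list, alone summed to 13687 and 4563 FPKM in WT. They summed to 9742 and 7331 in Sp1 ΔDBD/ΔDBD and 1564 and 3519 in Sp3-/- progenitors. *Klf1* in Sp3-/- progenitors, 19.0 and 24.2 FPKM, lay between the WT replicates, and its part in these sums was not tested. Of single genes, *Hbb-y* (-2.02, adjusted p = 0.0439) and *Slc4a1* (-2.35, 0.0187) were lower and *Hbb-b1* (5.42, 0.0263, from below 1 FPKM in both WT samples) higher than WT in Sp3-/- progenitors. That is 2 and 1 of the 14, where 4.77% and 3.88% of all genes were lower and higher, and the list's median was -0.91. The *Slc4a1* call was lost without WT (0.248) or Sp3-/- (0.247) replicate 1, and that of *Hbb-b1* without any of the 4 samples (0.0808 to 0.161). That of *Hbb-y* was lost without any of 17 samples (0.0512 to 0.515).

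**Figure D4:**
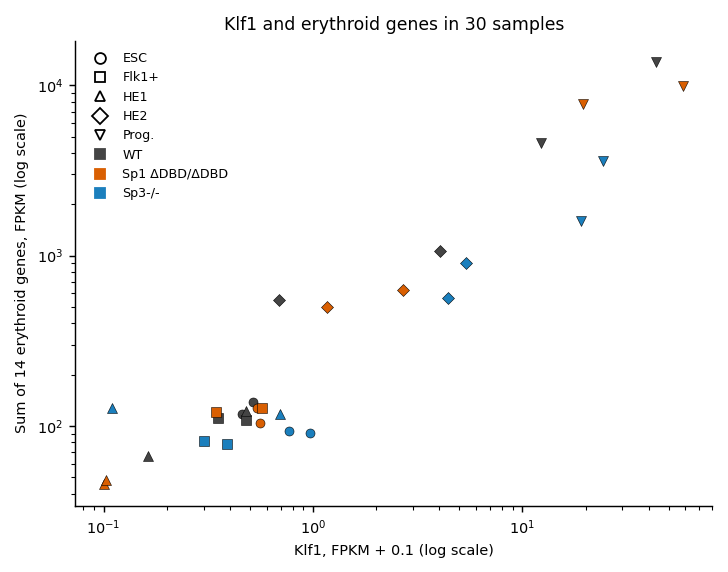
Summed FPKM of 14 erythroid genes (vertical log scale) against *Klf1* FPKM + 0.1 (horizontal log scale) in the 30 samples, with shapes for populations and colours for genotypes. The Sp3-/- progenitors (1605 and 3601 FPKM) sit below the other progenitor samples (4603 to 13756 FPKM), in a sum that weighs each gene by its level.

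The 6 endothelial genes known to respond to *Klf2* and *Klf4* moved with the endothelial fate. All 6 rose from WT Flk1+ cells to HE1, where 23.5% of all genes rose, with a median of log2 6.36. Among them were *Thbd* (7.29, adjusted p = 5.83e-09) and *Nos3* (4.91, 7.42e-06). From HE2 to progenitors 5 of 6 fell, where 7.78% of all genes fell, with a median of -3.07. The summed endothelial markers were themselves at 864 to 1371 FPKM in HE1 and at 109.7 to 161 FPKM in progenitors. In Flk1+ cells *Cdh5*, an endothelial junction gene, was higher in the Sp1 mutant (2.28, adjusted p = 0.000111, kept without any sample) and in Sp3-/- cells (1.43, 0.00486, lost without Sp3-/- replicate 1, 0.0619, or WT replicate 1, 0.0536). The summed endothelial markers of Flk1+ cells were 5.59 and 6.92 FPKM in WT, 16.5 and 39.4 FPKM in Sp1 ΔDBD/ΔDBD and 15.6 and 13.8 FPKM in Sp3-/- cells, that is in the same cells in which *Klf4* and *Klf10* were lower and *Klf7* higher. The part of that difference in cell make-up was not tested. In HE1 and HE2 of both mutants *Klf4* was below WT, without passing the test in Sp3-/- HE1. Over these comparisons 1 of the 6 genes passed the test against WT, *S1pr1* in Sp3-/- HE2 (-0.93, adjusted p = 0.0168). It was lost without Sp3-/- replicate 1 (0.148) or WT replicate 1 (0.0991) or 2 (0.0519). In these comparisons 9.67% to 13.8% of all genes passed, so this count is not above the background.

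Of 9 pluripotency genes of the *Klf2*, *Klf4* and *Klf5* circuit, 7 fell and 1, *Tbx3*, rose from WT ESC to Flk1+ cells. Of all genes 24.7% fell and 27.4% rose in this step, and the median of the 9 was log2 -4.41. None of the 9 passed the test in ESC of either mutant. In Flk1+ cells *Prdm14* was lower in Sp1 ΔDBD/ΔDBD (-1.93, adjusted p = 0.00212) and Sp3-/- cells (-1.22, 0.0279), at group means of 0.498 and 0.867 FPKM against 2.19 FPKM. Without WT Flk1+ replicate 2 both calls were lost (0.0609 and 0.281), and the second was lost without either Sp3-/- replicate too (0.108 and 0.146). *Sox2*, a core pluripotency factor, was higher in Sp3-/- Flk1+ cells (log2 2, adjusted p = 0.0383), at 0.940 FPKM against 0.188 FPKM, and that call was lost without either Sp3-/- replicate (0.181 and 0.133) or WT replicate 2 (0.368). The list thus had 1 higher and 1 lower member there, with a median of 0.36. Summed ESC markers were 94.9 and 97.6 FPKM in Sp3-/- Flk1+ cells, 54.0 and 21.6 FPKM in Sp1 ΔDBD/ΔDBD and 41.3 and 31.9 FPKM in WT, and the part of this difference in the Flk1+ results was not tested.

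Several Klf genes can be induced rapidly by a stimulus, as immediate early genes such as *Fos* are, so 13 of the latter were followed beside them. Of these, 10 rose and none fell from WT Flk1+ cells to HE1, where 23.5% of all genes rose, with a median of log2 2.46. In HE1 their summed FPKM was 371 and 459 for WT, 271 and 299.6 for Sp1 ΔDBD/ΔDBD and 362 and 292 for Sp3-/- cells, and in HE2 it was 235 and 352, 193 and 176, and 288 and 242. In progenitors the sums were 183 and 286, 116 and 161, and 185 and 179. Sp1 ΔDBD/ΔDBD samples were the lowest in both HE2 and progenitors, as they were for *Klf4* in progenitors. In Sp1 ΔDBD/ΔDBD cells 2 of 13 were lower in HE1, 2 in HE2 and 4 in progenitors, where 4.35%, 4.97% and 5.04% of all genes were lower. *Fos* in progenitors (-1.99, adjusted p = 0.00360) was kept without any sample. The others were each lost without at least 1 sample, *Fosb* (0.0655 to 0.0922) and *Ier3* (0.0742 to 0.172) in HE1, *Fos* (0.0503 to 0.206) and *Fosb* (0.0514 to 0.164) in HE2, and *Fosb* (0.0740 to 0.171), *Atf3* (0.0823 to 0.316) and *Dusp1* (0.0502 to 0.338) in progenitors. The Sp3 knockout had 2 that were higher in ESC (5.40% of all genes) and 3 in Flk1+ cells (6.69%), among them *Ier2* (1.69, 0.000685, and 1.29, 0.00441), while *Klf10* was lower in the same Flk1+ cells. The *Ier2* call in Flk1+ cells was lost without Sp3-/- replicate 1 (0.0518) or WT replicate 2 (0.0864). Later, 2 of the 13 were lower in Sp3-/- HE1 and 1 each in HE2 and progenitors, where 4.87%, 6.84% and 4.77% of all genes were lower. Of the calls in Sp3-/- cells, that of *Ier2* in ESC was kept without any sample, and each of the others was lost without at least 1. The part of such an induction in the Klf results was not tested.

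Among the 6 other Klf genes of the table, *Klf8* and *Klf15* changed most often in the mutants. *Klf15*, a metabolic regulator, measured 0.125 and 0.137 FPKM in WT HE2, 0.0707 and 0.143 FPKM in Sp1 ΔDBD/ΔDBD and 0.977 and 1.34 FPKM in Sp3-/- HE2. Both Sp3-/- samples lay above all the others, and the differences of log2 2.43 from WT (adjusted p = 0.000723) and 2.61 from Sp1 ΔDBD/ΔDBD (0.000200) were kept without any sample. *Klf15* was also higher in Sp3-/- HE1 (1.53, adjusted p = 0.0153, lost without WT replicate 1, 0.238, or Sp3-/- replicate 1, 0.0877, or 2, 0.0861). *Klf8*, a repressor that recruits CtBP, had 3.42 and 4.13 FPKM in WT progenitors, 6.35 and 7.19 FPKM in Sp1 ΔDBD/ΔDBD and 12.5 and 12 FPKM in Sp3-/- progenitors, with no overlap. It was higher by 1.68 in Sp3-/- progenitors (adjusted p = 0.00288, kept without any sample). In HE1 it was higher in the Sp1 mutant (1.33, adjusted p = 0.0105, lost without replicate 2 of WT, 0.0695, or of the mutant, 0.198). In Flk1+ cells it was lower in Sp3-/- cells (-1.26, adjusted p = 0.0124, lost without any of the 4 samples, 0.0585 to 0.105).

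**Figure D5:**
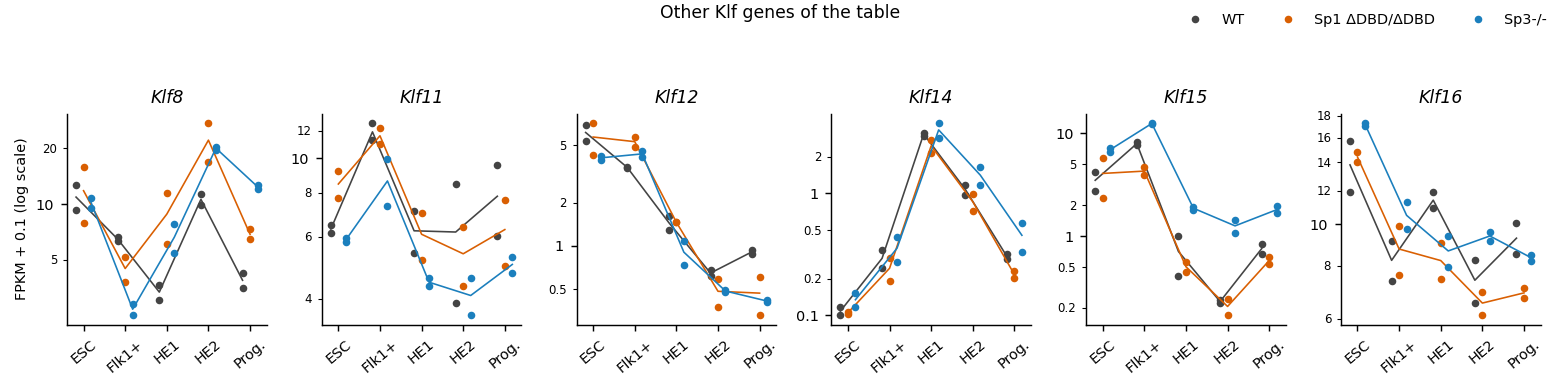
FPKM + 0.1 (vertical log scale, a different range in each panel) of the 6 other Klf genes in the 5 populations for WT (black), Sp1 ΔDBD/ΔDBD (orange) and Sp3-/- (blue). Points are single samples and lines join arithmetic means, and *Klf15* in HE2 is at 0.977 and 1.34 FPKM in Sp3-/- against at most 0.143 FPKM in the other genotypes.

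The genes whose 15 group means followed a member most closely were sought among 12006 genes with a group mean above 3 FPKM, by Pearson's r of log2 values. These correlations describe 15 groups that share libraries and populations. *Klf1* was followed most closely by *Treml2* (r = 0.979), *1300017J02Rik* (0.961) and *Gata1* (0.959), and *Klf2* by *Icam1* (0.968), *Socs3* (0.968) and *Foxo1* (0.964). *Klf6* was followed by *Cpne2* (0.959), *Itgav* (0.958) and *Adamts1* (0.95), and *Klf4* by *Ak1* (0.963), *Timp1* (0.942) and *Igsf9b* (0.940). For *Klf3* the closest gene was *Jup* (0.979), for *Klf9* *Bcam* (0.979), for *Klf5* *Foxd3* (0.974), for *Klf13* *Gne* (0.958), for *Klf7* *Acap3* (0.941) and for *Klf10* *Nmt2* (0.925). Between members the closest pair was *Klf2* and *Klf3* (r = 0.95), and *Klf1* ran opposite to *Klf4* and to *Klf10* (r = -0.69 for each).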

How the data were processed

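RNA was sequenced from 30 samples, grouped by the population, genotype and replicate in their labels. The authors made ribosome-depleted stranded libraries, aligned reads to mm10 with HISAT2 2.1.0, computed FPKM with StringTie 1.3.3, dropped genes that never exceeded 1 FPKM and deposited the remaining FPKM after quantile normalisation. At 12742 of 14685 ranks all 30 samples hold the same value, so differences in total output cannot be seen. Read counts and depth are not given in the sources used here, so no counting interval was computed. The annotation used with StringTie is also not given there. Gene positions, GC content and length came from GENCODE M21 (GRCm38), to which 14554 of the symbols matched, and promoter sequence from RefSeq (GRCm38.p6).

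Tests used limma 3.58.1 (R 4.3.3) on log2(FPKM + 0.1) with 15 group means over 30 samples, empirical Bayes with intensity trend (15 residual and 3.92 prior degrees of freedom) and Benjamini-Hochberg adjustment over 14525 genes within each comparison. Folds are on this scale, which understates the change of low genes. All tests are two-sided. Python 3.11.15 made the summaries. Named genes were all members, genes of 6 lists, the targeted genes, markers, and per member the 3 genes most like it, of which only the closest is printed for some. Members and lists were chosen with earlier results of these data known. Alternatives changed the pseudocount, the filter, the trend, the correction, the block and the samples fitted, and left out each sample in turn. On simulated data the fit recovered slightly fewer of the large changes than a bar set for it, and the bar was then lowered. Nothing states whether replicates were separate cultures, beyond the word biological, so p-values measure the spread between these samples.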

Additional observations from a re-analysis of the deposited data

Results flagged for a closer look

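*Klf10* was singled out because the effect of the Sp3 knockout differed between populations by a test of the difference itself. This was the 1 pass among 80 such tests of a member, 1.25% where 2.13% of those of all genes passed. The Sp3-/- minus WT difference in Flk1+ cells less that in ESC was log2 -1.21, with an adjusted p of 0.0340 (limma, Benjamini-Hochberg over 14525 genes). Both Sp3-/- Flk1+ samples (15.1 and 20.4 FPKM) were below both WT samples (46.7 and 47.8 FPKM), and in ESC the Sp3-/- samples (24.6 and 24.1 FPKM) were closer to WT (31.0 and 25.6 FPKM). The result was lost without any of 7 of the 8 samples it compares, at adjusted p up to 0.197.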

How the results depend on the processing

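Values are counts of member calls unless stated. Sp1 ΔDBD/ΔDBD against WT gave 8, with 12 under a replicate block, 13 after correction for GC content and length, 15 with that correction and a replicate block, 1 with each population fitted alone, and 5 to 11 without 1 sample. Sp3-/- against WT gave 9, with 14 under the replicate block, 15 under the block with the correction, 2 with each population alone and 5 to 10 without 1 sample. Sp3-/- against Sp1 ΔDBD/ΔDBD gave 3, with 0 after the correction, 6 under the block, 1 alone (*Klf4* in ESC, not among the 3) and 2 to 6 without 1 sample. The tests of a later population against ESC gave 1, with 5 under block and correction and 0 to 2 without 1 sample. Pairs of WT populations gave 67, and 61 to 70 without 1 sample, the steps in Sp1 ΔDBD/ΔDBD 24, and 19 to 24, and those in Sp3-/- 18, and 13 to 21. Past a fold of 2 there were 4 in Sp1 ΔDBD/ΔDBD, with 2 at a pseudocount of 1 and 3 to 7 without 1 sample, and 8 in Sp3-/-, with 6 to 10. Over all 16 Klf genes the shares were 17.6% for *Klf9* in ESC, 27.6% for *Klf10* in Flk1+ cells, 47.2% for *Klf6* in HE1 and 47.5% in HE2. Without Sp1 ΔDBD/ΔDBD progenitor replicate 1, 2 differences in progenitors changed sign, neither of them called: *Klf13* in Sp3-/- minus Sp1 ΔDBD/ΔDBD (log2 -0.02 to 0.91 without 1 sample) and *Klf2* in Sp1 ΔDBD/ΔDBD minus WT (-1.69 to 0.13). The cause of these changes was not tested, beyond the fewer samples of the population fits.

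Kept under all 38 alternatives were 0 of the 8, 1 of the 9 and 0 of the 3 calls (*Klf10* in Sp3-/- Flk1+ cells), 47 of the 67 pairs, and 11 of the 24 and 11 of the 18 mutant steps. *Klf6* in Sp3-/- HE2 was lost only with HE2 fitted alone (adjusted p = 0.0581). With 2 replicates the shared numbers are not taken as a pairing. Deviations of same-numbered samples of a population correlated at 0.218 to 0.455 across genes between WT and Sp1 ΔDBD/ΔDBD and at 0.00920 to 0.192 between WT and Sp3-/-. They correlated at 0.345 to 0.418 among WT HE1, HE2 and progenitors, so the residual degrees of freedom may be overstated. The block ended 1 genotype call, *Klf7* in Sp3-/- Flk1+ cells (0.0599). Differences from WT gained under it were *Klf3*, *Klf5* and *Klf6* in HE2 and *Klf6* in progenitors for Sp1 ΔDBD/ΔDBD, and *Klf5* and *Klf6* in Flk1+ cells, *Klf4* in HE1, *Klf9* and *Klf10* in HE2 and *Klf5* in progenitors for Sp3-/-. Depth was unknown, and with 2 samples a group, differences near 1 on the log2 scale often missed the threshold.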
